A study of Mus musculus with 6 samples.

Results

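The genes described here encode the matrix metalloproteinases (Mmp), the Adamts metalloproteases and their tissue inhibitors (Timp) in sorted mouse kidney cells. They were chosen by gene symbol alone: an Mmp or Adamts number, or Timp1 to Timp4. The count table held 45 such genes of 31815, namely 22 Mmp, 19 Adamts and 4 Timp genes. A gene was reported when at least 10 counts were found in 3 or more of the 6 libraries, which 38 genes met (18 Mmp, 17 Adamts and 3 Timp). Just outside this limit lay Mmp24, with 19 counts in 1 library and at most 9 in the others, and just inside it lay Mmp7, with 17 or more in 3 libraries. The other 6 genes outside it were Timp4, with 1 to 10 counts per library, Adamts13 with 0 to 3, Mmp20 and Mmp21 with 0 to 1, and Mmp1b and Adamts19 with 0 in every library. A count of 0 allows a level of up to 3 counts, or 0.0915 to 0.114 in counts-per-million units (CPM) in these libraries, for counting error only.

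The libraries came from male Axin2CreERT2/+:R26RtdT/+:Acta2-GFP mice aged 9 to 12 weeks, all with bilateral ischemia reperfusion injury and all given tamoxifen on days 2 and 4. On day 6 after injury cells of the cortex and outer medulla were sorted into tdT+GFP+ and tdT-GFP+ cells, with 3 libraries of each, and each of kidneys 1, 2 and 3 gave both. CreERT2 is driven by Axin2, a target of canonical Wnt signalling, so that tdT marks cells that used Axin2 around the tamoxifen doses. GFP is driven by Acta2, the smooth muscle actin gene of smooth muscle cells and myofibroblasts. Both groups share the alleles, the injury, the tamoxifen and the GFP gate, and no uninjured sample was analysed here.

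Matrix metalloproteinases are zinc enzymes that are made as inactive precursors and cut collagens, gelatin, laminin, elastin and many cell surface proteins. Adamts proteases are secreted relatives with thrombospondin repeats that cut the large proteoglycans, remove the amino-terminal propeptides of procollagens or act at microfibrils. Timps bind the active site of these enzymes and block it, and Timp3, which stays bound to matrix, also blocks several Adamts enzymes. In the injured kidney both groups of enzymes and their inhibitors are made largely by fibroblasts, myofibroblasts and infiltrating leukocytes.

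Markers of fibroblasts and myofibroblasts were high in all libraries, and markers of other cell types were present too. Total counts ran from 25697348 to 33029933 per library. The 6 fibroblast markers summed to 41047 to 45539 CPM in the tdT+GFP+ sort and 31777 to 46873 CPM in the tdT-GFP+ sort, and Acta2, Tagln and Postn to 2840.2 to 3508 and 1833 to 3273 CPM. Summed endothelial markers (8 genes, all with negative log2 fold changes) were at 419 to 686 CPM in the tdT+GFP+ sort and 896 to 1575 CPM in the tdT-GFP+ sort. The 6 pericyte and smooth muscle markers, all with negative log2 fold changes, were at 726 to 966 and 993 to 1844 CPM. Smooth muscle cells use Acta2 and so can lie within the GFP gate. The 6 tubule markers, 5 with negative log2 fold changes and 1 with a positive one, were at 389 to 646 and 582 to 1381 CPM. The 3 podocyte markers were at 76.3 to 101 and 161 to 303 CPM. The 7 macrophage markers, all with positive log2 fold changes, were at 218 to 708 and 181 to 447 CPM, and the 5 neutrophil markers at 11.4 to 18.9 and 10.01 to 15.4 CPM. No gene of these lists was at 0 in all libraries. Over all genes, deviations from the group means correlated at 0.448 between tdT+GFP+ library 2 and tdT-GFP+ library 3 and at 0.444 between tdT+GFP+ library 3 and tdT-GFP+ library 2, but at -0.578 and -0.304 between the libraries of kidneys 2 and 3. As deviations are taken from each sort's own mean, these correlations are tied to each other and are not separate observations. Whether the numbers 2 and 3 were exchanged in a sort was not tested, and tallies by kidney and fits with a block by kidney rest on the labels. Exons of 10 of the 38 genes overlap an exon of a gene on the other strand, namely Adamts4, Adamts7, Adamts8, Adamts9, Mmp7, Mmp11, Mmp12, Mmp19, Mmp28 and Timp3, and although the libraries are strand-specific per the labels, no source used here says whether reads were counted by strand. The partner of highest level was Tbc1d2b beside Adamts7, and Mmp1b beside Mmp12 had 0 counts. In sorted bulk samples, fewer cells of a type and less RNA per cell cannot be told apart.

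Several Mmp genes lie side by side on chromosome 9, and the start regions of 5 of the reported ones carry the same short motif. Mmp13, Mmp12, Mmp3, Mmp10, Mmp8, Mmp27 and Mmp7, all reported, lie on the plus strand between 7272514 and 7699585 (GRCm38). The windows below run from 90 bases before to 10 bases from a RefSeq start of each gene (GRCm38.p6). They are shown because 2 members of this cluster, Mmp3 and Mmp10, put the libraries in the same order of level. Mmp12 and Mmp7 have 2 listed starts each, and the start shown was picked because its window holds AP-1 letters. The region around the other start of each, from 250 bases before to 50 after, held 0 AP-1 matches. Capitals mark the AP-1 motif TGANTCA, searched on both strands, and the TATA box letters TATAAA on the sense strand.
Mmp13, chr9:7272424-7272523: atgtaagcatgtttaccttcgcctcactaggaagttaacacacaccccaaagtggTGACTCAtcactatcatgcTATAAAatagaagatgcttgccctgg
Mmp12, chr9:7347284-7347383: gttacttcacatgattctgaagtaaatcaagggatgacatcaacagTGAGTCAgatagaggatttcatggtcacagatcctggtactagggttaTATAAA
Mmp3, chr9:7445732-7445831: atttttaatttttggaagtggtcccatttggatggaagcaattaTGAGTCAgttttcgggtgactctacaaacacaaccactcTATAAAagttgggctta
Mmp10, chr9:7502252-7502351: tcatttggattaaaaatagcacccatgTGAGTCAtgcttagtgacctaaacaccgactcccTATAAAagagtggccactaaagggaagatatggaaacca
Mmp8, chr9:7558339-7558438: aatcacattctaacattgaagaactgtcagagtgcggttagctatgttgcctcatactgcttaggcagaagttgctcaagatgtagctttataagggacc
Mmp27, chr9:7571306-7571405: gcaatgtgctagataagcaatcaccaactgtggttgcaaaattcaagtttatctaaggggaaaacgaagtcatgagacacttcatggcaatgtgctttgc
Mmp7, chr9:7692000-7692099: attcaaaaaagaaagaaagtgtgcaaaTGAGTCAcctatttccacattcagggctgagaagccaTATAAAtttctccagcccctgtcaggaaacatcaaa
The AP-1 letters began 35 bases before the start in Mmp13, 44 in Mmp12, 46 in Mmp3 and 63 in both Mmp10 and Mmp7, and Mmp8 and Mmp27 held no match in this window. TATAAA stood between the AP-1 letters and the start in Mmp13, Mmp3, Mmp10 and Mmp7, and past the listed start in Mmp12. RefSeq start regions from 250 bases before to 50 after the start were found for 25 of the 38 genes. A gene was counted when any of its listed starts held the letters. The AP-1 letters were in 5 of these 25 (20%) and in 8.97% of 27025 genes with such a region. All 5 lie in the cluster on chromosome 9, and no member outside this cluster held the letters. The 20% thus rests on 1 group of neighbouring relatives, which are not independent genes, and does not describe the members at large. The TATAAA letters were in 6 of the 25 (24%, the same 5 genes and Adamts1) against 9.77% of all genes. The TCF/LEF letters CTTTGAT, searched on both strands for the factors of Wnt signalling, were in Mmp7 only among the 25 (4%) and in 4.29% of all genes. The motifs do not overlap each other in the windows shown. A match in these letters is a description of the sequence and does not show a bound site.

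Of the reported mRNAs, those of the inhibitors Timp1 and Timp2 were the most abundant per length. In CPM alone Timp1 lay below Timp2 in every library, and its annotated exons span 888 bases against 3896. Levels between genes are compared in CPM per kilobase of annotated exon, as the mean over 6 libraries. Timp1 led with 416, followed by Timp2 with 248, the membrane-bound collagenase Mmp14 with 174, Adamts1 with 143, the gelatinase Mmp2 with 126, Timp3 with 121, Adamts4 with 99.6 and the procollagen protease Adamts2 with 81.4 CPM per kilobase. Every value of Timp1 (299.8 to 609) lay above every value of Timp2 (218 to 277), and every value of Timp2 lay above those of Mmp14 (153 to 211). From Mmp14 down to Adamts2 (63.8 to 92.8) the library ranges of neighbours in this order overlapped. Of the 38 genes, 17 had more than 10 CPM per kilobase and 12 had less than 1, among them the collagenases Mmp8 and Mmp13, the matrilysin Mmp7, and Mmp10, Mmp16, Mmp25, Mmp27, Adamts3, Adamts8, Adamts16, Adamts18 and Adamts20.

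**Figure D1:**
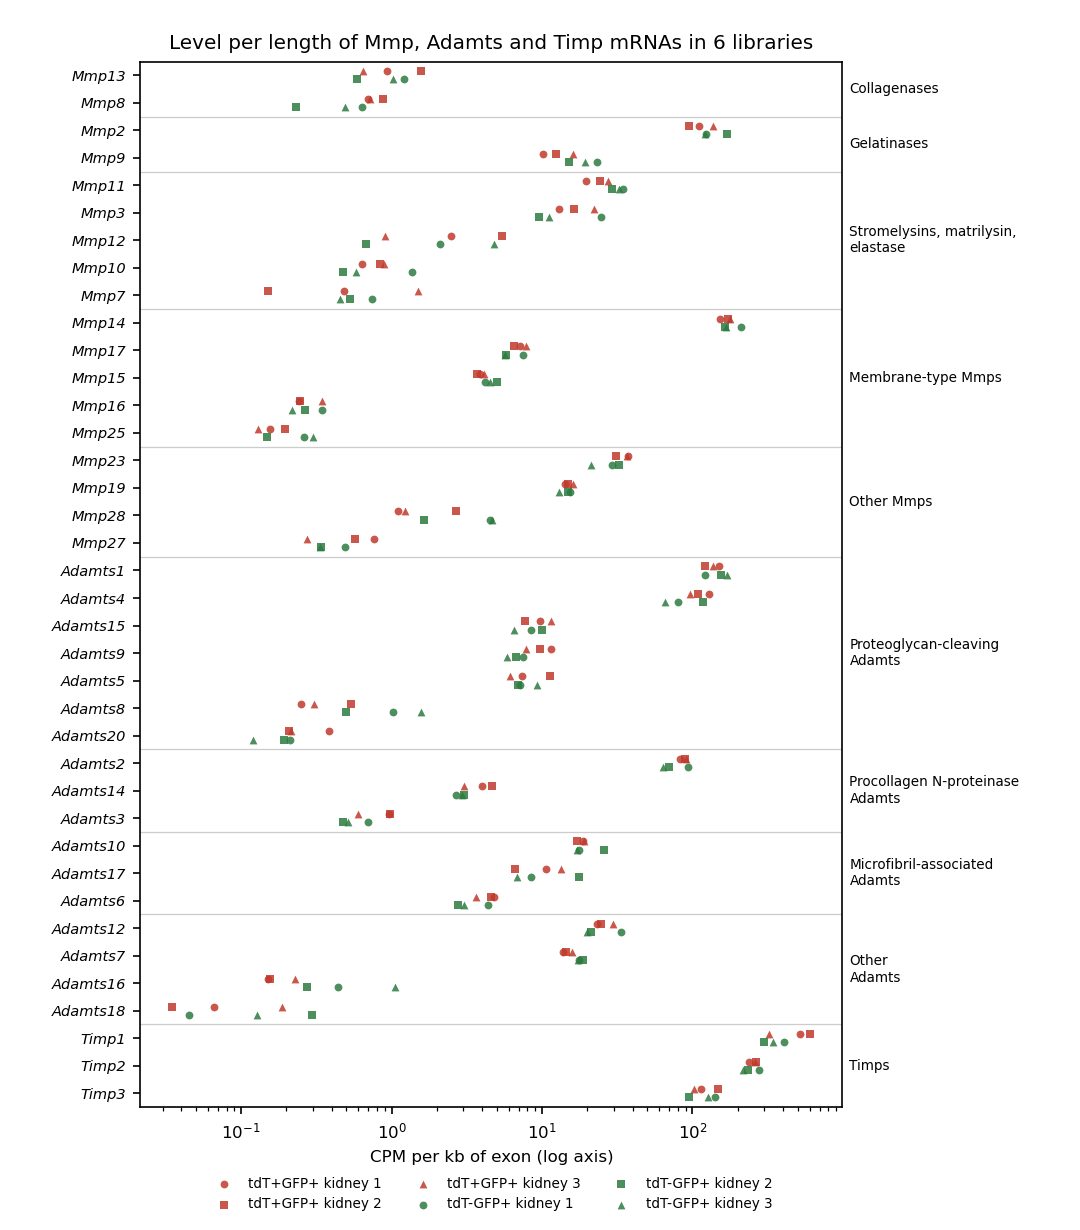
Level of each of the 38 reported genes in CPM per kilobase of exon (log axis), with 1 point per library, coloured by sort and shaped by kidney, and grouped by role. Timp1, Timp2 and Mmp14 are at the right, and the points of the 2 sorts overlap for most genes.

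Summed over each family, the sorts overlapped. The 4 Timp genes together had 869, 1020.2 and 688 CPM per kilobase in the tdT+GFP+ sort, by kidney number, against 825, 629 and 685 in the tdT-GFP+ sort. The 22 Mmp genes together had 375, 388 and 452 against 484, 451 and 409, and the 19 Adamts genes 468, 420.1 and 436 against 404, 457 and 391 CPM per kilobase. The Timp sum was the most variable, with its highest value in tdT+GFP+ library 2 and its lowest in tdT-GFP+ library 2. Within each library the Timp sum was above the Mmp sum, by 2.32, 2.63 and 1.52 times in the tdT+GFP+ sort and 1.7, 1.4 and 1.68 times in the tdT-GFP+ sort, and tdT+GFP+ library 3 lay within the tdT-GFP+ range. Timp2 is known both to inhibit Mmp14 and to bridge it to the precursor of Mmp2. The ratio of Mmp14 to Timp2 per length was 0.642, 0.651 and 0.68 in the tdT+GFP+ sort and 0.761, 0.70 and 0.765 in the tdT-GFP+ sort, with no overlap, and that of Mmp9 to Timp1 was 0.0194, 0.0203 and 0.0496 and 0.0569, 0.0502 and 0.0568, also with no overlap. For Mmp2 to Timp2 the ratios overlapped, at 0.461, 0.36 and 0.528 and 0.446, 0.727 and 0.558. Of 8 ratios computed, Mmp14 to Timp2 and Mmp9 to Timp1 separated the sorts and the others overlapped, among them Adamts to Mmp, Adamts4 and Adamts1 to Timp3, and Adamts2 to Adamts14. For Mmp9 to Timp1 the margin was narrow, 0.0496 in tdT+GFP+ library 3 against 0.0502 in tdT-GFP+ library 2. The ratios were not tested, and the share of ratios of other genes that separate the sorts was not computed.

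**Figure D2:**
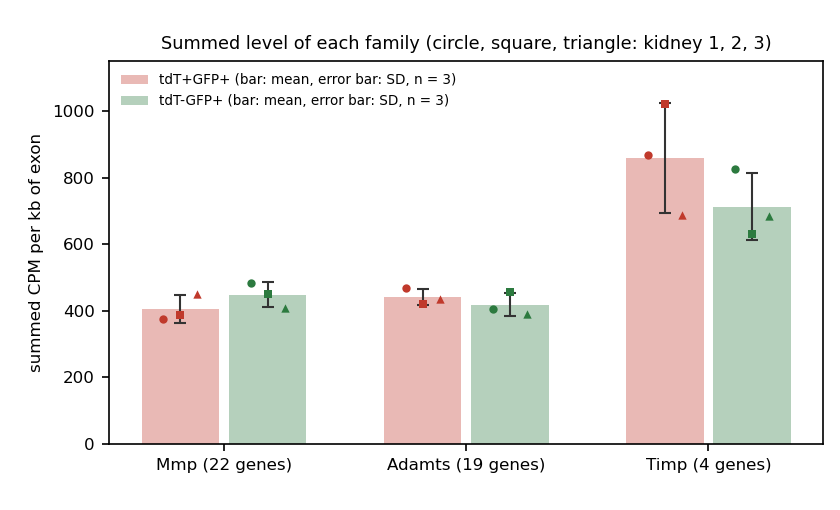
Summed level of each family in CPM per kilobase of exon by sort. Bars are means, error bars are the SD of 3 libraries and points are libraries; the Timp sum exceeds the Mmp and Adamts sums in both sorts, and the points of the sorts overlap in each family.

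No Mmp, Adamts or Timp gene passed the test between tdT+GFP+ and tdT-GFP+ cells over all genes. With edgeR's quasi-likelihood test 0 of the 38 had an adjusted p under 0.05, as 0 of the 15462 genes tested did (0%), and the members' adjusted p ran from 0.414 to 0.998. At an unadjusted p under 0.05 there were 2 members with higher values in tdT+GFP+ cells, Adamts9 and Adamts14, which is 5.26% of the 38 against 3.71% of all genes tested. With lower values there were 5, namely Adamts7, Adamts16, Mmp11, Adamts8 and Mmp9, which is 13.2% against 6.97%. The values of the sorts did not overlap for 2 members that were higher (Adamts9 and Mmp8, 5.26% against 7.23% of all genes) and 4 that were lower (Mmp11, Mmp15, Adamts7 and Adamts16, 10.5% against 8.6%). The log2 fold change (tdT+GFP+ over tdT-GFP+, the value given in brackets beside CPM values throughout) was positive in 23 and negative in 15 members, with a median of 0.06 against 0.00 over all genes tested. It was under 0.25 in size in 18 members and above 1 in 3, Adamts16, Adamts8 and Mmp28. DESeq2 called 0 of the 38 (0.117% of 14559 genes called higher and 1.81% lower). Under a block by kidney it called Adamts9 higher (1 of 37 members, 2.7%, against 0.287% of 14262 genes, and 0 members lower against 1.66%). At the unadjusted p the counts moved with the libraries used, among members and among all genes. The 2 higher members (573 of all genes) became 1 without tdT+GFP+ library 1 (106 of all genes), 1 without tdT+GFP+ library 2 (223) and 1 without tdT-GFP+ library 3 (264). They became 4 without tdT+GFP+ library 3 (947 of all genes) and 8 without tdT-GFP+ library 1 (1667). The 5 lower members (1077 of all genes) became 2 without tdT+GFP+ library 1 (487), 3 without tdT-GFP+ library 3 (567) and 3 in edgeR under a block by kidney (911). Without both libraries of kidney 1, 2 or 3 there were 5, 4 and 4 higher members (786, 371 and 867 of all genes) and 0, 6 and 5 lower members (679, 1043 and 1033 of all genes). With fewer libraries groups separate more easily: members without overlap numbered 11 higher without tdT-GFP+ library 1 (3037 of all genes) and 8 lower without tdT-GFP+ library 2 (2182).

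**Figure D3:**
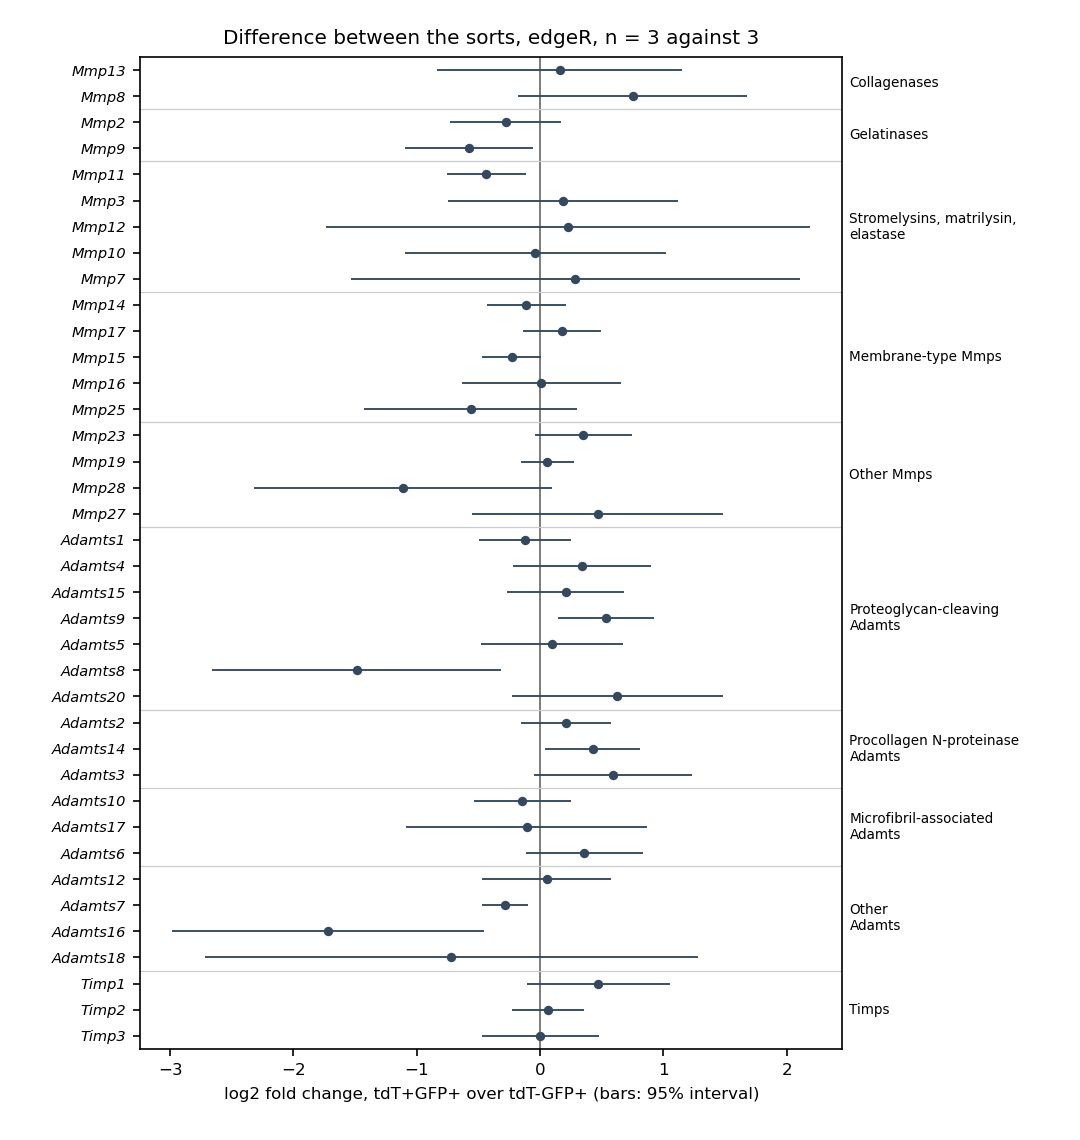
Log2 fold change of each reported gene, tdT+GFP+ over tdT-GFP+, from edgeR with 95% intervals, in the order of the plot of levels. The interval contains 0 for 31 of the 38 genes, and it is widest for genes of low or variable level such as Mmp12, Mmp7, Adamts16 and Adamts18.

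The fold changes of the 3 reported inhibitors were positive and none passed the test, and that of Timp3 was 0.00 and turned negative in DESeq2 under a block by kidney. Timp1, a small secreted inhibitor that rises in injured and fibrotic kidney (GRCm38 chromosome X, 20870166 to 20874735, plus strand), had 460.0, 541 and 288 CPM in the tdT+GFP+ sort against 360.3, 266 and 303 CPM in the tdT-GFP+ sort, each in the order of kidneys 1, 2 and 3, as for all genes here. Libraries 1 and 2 of tdT+GFP+ cells were the highest, but library 3 lay within the tdT-GFP+ range. The mean was 429.6 ± 129 against 309.8 ± 47.4 CPM (SD, n = 3 each), a log2 fold change of 0.47 (SE 0.24, edgeR adjusted p = 0.499). It stayed between 0.17 and 0.70 when libraries or kidneys were left out. Timp2 (GRCm38 chromosome 11, 118301069 to 118355740, minus strand) had 926, 1026 and 1015 against 1080.1, 912 and 849 CPM (log2 fold change 0.06, SE 0.12), and its highest library exceeded its lowest by 1.27 times, one of the narrowest ranges among the members. Timp3 (GRCm38 chromosome 10, 86300372 to 86349506, plus strand) had 921, 1205 and 837 against 1152, 777 and 1029 CPM, a log2 fold change of 0.00 with a 95% interval of -0.47 to 0.47. Both sorts held high and low libraries of Timp3, with kidney 2 at both ends. The exons of Timp3 overlap those of Syn3 on the other strand, which stood at 2.72 to 5.94 CPM.

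Both gelatinases, which cut denatured collagen and basement membrane collagen, had negative fold changes. Mmp9 (GRCm38 chromosome 2, 164940780 to 164955850, plus strand), an enzyme known also from neutrophils and macrophages, had 35.6, 43.8 and 57.0 CPM in the tdT+GFP+ sort and 81.7, 53.3 and 68.6 CPM in the tdT-GFP+ sort. It was lower in tdT+GFP+ cells in 3 of 3 kidneys as labelled, but tdT+GFP+ library 3 lay above tdT-GFP+ library 2, so the tally would not hold if the numbers 2 and 3 were exchanged. The log2 fold change was -0.58 (SE 0.22, edgeR unadjusted p = 0.0337, adjusted p = 0.445). Mmp2 (GRCm38 chromosome 8, 92827291 to 92853420, plus strand), a typical fibroblast product, had 369.6, 319.9 and 464 against 417, 573 and 409.7 CPM (log2 fold change -0.28, SE 0.19), with tdT-GFP+ library 2 as the highest. Without both libraries of kidney 2 the value of Mmp2 was 0.00456. The neutrophil markers summed to 18.9, 15.3 and 11.4 against 13.7, 10.01 and 15.4 CPM, and their part in Mmp9 was not tested.

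The membrane-bound enzymes were led by Mmp14 and differed little between the sorts. Mmp14 (GRCm38 chromosome 14, 54431612 to 54445364, plus strand), which cuts fibrillar collagen at the cell surface and activates the precursor of Mmp2, had 909.9, 1022 and 1056 CPM in the tdT+GFP+ sort and 1257, 976 and 994 CPM in the tdT-GFP+ sort. Only tdT-GFP+ library 1 stood above the rest, and the log2 fold change of -0.11 (SE 0.13) had a 95% interval of -0.43 to 0.21. Mmp15, a close relative, was lower in every tdT+GFP+ library, at 20.9, 19.8 and 22.3 against 22.5, 27.2 and 24.2 CPM (log2 fold change -0.23, SE 0.10, edgeR adjusted p = 0.469). The margin of Mmp15 was within counting error, with 585 counts in tdT+GFP+ library 3 (22.3 CPM) and 682 in tdT-GFP+ library 1 (22.5 CPM). Mmp17, which is anchored by a lipid, had 47.3, 42.8 and 52.1 against 49.5, 38.3 and 37.7 CPM (0.18, SE 0.13). Mmp25, an enzyme of neutrophils, had 0.824, 1.03 and 0.685 against 1.38, 0.785 and 1.59 CPM (-0.56, SE 0.36). Mmp16 had 2.11, 2.13 and 3.01 against 2.96, 2.32 and 1.89 CPM (0.01, SE 0.27). The values of Mmp17, Mmp25 and Mmp16 overlapped between the sorts.

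Interstitial collagenases were scarce, and the stromelysin group was led by Mmp11 and Mmp3. Mmp8, the collagenase of neutrophils, had 1.68, 2.13 and 1.75 against 1.55, 0.561 and 1.19 CPM, with all tdT+GFP+ libraries above all tdT-GFP+ libraries. Its counts were 46 to 66 and 15 to 47 per library, and the log2 fold change was 0.75 (SE 0.39, edgeR adjusted p = 0.499). The closest libraries of Mmp8, tdT+GFP+ library 1 with 55 counts and tdT-GFP+ library 1 with 47, differed within counting error. Mmp13, the main collagenase of rodent connective tissue, had 2.47, 4.22 and 1.71 against 3.23, 1.57 and 2.74 CPM (0.16, SE 0.42), with overlap. Mmp11 (GRCm38 chromosome 10, 75923222 to 75936496, minus strand), which is known from stromal cells beside remodelling epithelium and is activated inside the cell, was lower in every tdT+GFP+ library, at 54.4, 67.2 and 75.9 against 95.6, 80.98 and 90.5 CPM. Its mean was 65.8 ± 10.8 against 89.03 ± 7.43 CPM (SD, n = 3 each), a log2 fold change of -0.44 (SE 0.13, edgeR unadjusted p = 0.0147, adjusted p = 0.421, DESeq2 adjusted p = 0.151). The exons of Mmp11 overlap those of Chchd10 on the other strand, which had 15.2 to 24.8 against 25.3 to 50.5 CPM. Mmp3, or stromelysin-1, had 23.3, 29.6 and 39.8 against 44.1, 17.2 and 19.99 CPM (0.19, SE 0.39), with tdT-GFP+ library 1 and tdT+GFP+ library 3 as the highest.

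Mmp12, Mmp10 and Mmp7 varied between the libraries of each sort, and their values overlapped. Mmp12, the elastase of macrophages, had 18.1, 39.1 and 6.58 CPM in the tdT+GFP+ sort and 15.1, 4.86 and 34.6 CPM in the tdT-GFP+ sort, so that the highest library exceeded the lowest by 8.05 times. The log2 fold change of 0.23 (SE 0.82) turned to -1.01 without both libraries of kidney 2 and was 1.51 without both of kidney 3. The 7 macrophage markers summed to 574, 708 and 218 CPM in the tdT+GFP+ sort and 269.9, 181 and 447 CPM in the tdT-GFP+ sort. Thus Mmp12 and the macrophage sum were both highest in tdT+GFP+ library 2 and lowest in tdT-GFP+ library 2. So were the fibroblast markers Dcn and Lum and the members Timp1, Timp3, Mmp8 and Mmp13, so these extremes are not particular to macrophage genes. The part of macrophages in Mmp12 was not tested. Mmp10, stromelysin-2, had 22 to 71 counts per library and 1.1, 1.45 and 1.52 against 2.34, 0.822 and 1.0 CPM (-0.04). Mmp7, known from injured tubule epithelium as a Wnt target, had 5 to 42 counts per library and 0.519, 0.161 and 1.6 against 0.79, 0.561 and 0.482 CPM (0.29, SE 0.76). Its highest and lowest values were both tdT+GFP+ libraries.

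Among the remaining Mmp genes, Mmp23 had a positive and Mmp28 a negative fold change, and neither passed. Mmp23, a membrane protein with an unusual structure for this family, had 87.4, 72.8 and 85.9 against 68.04, 75.6 and 49.6 CPM (log2 fold change 0.35, SE 0.16, edgeR adjusted p = 0.487), with tdT-GFP+ library 3 as the lowest. Mmp19 was even across libraries, at 50.2, 52.5 and 56.7 against 54.2, 52.8 and 45.9 CPM (0.06, SE 0.09). Mmp28, or epilysin, had 4.24, 10.4 and 4.72 against 17.5, 6.39 and 18.02 CPM (-1.11, SE 0.50, edgeR adjusted p = 0.477). Its exons overlap those of 1700020L24Rik on the other strand, which had 0.266 to 1.77 against 0.448 to 3.13 CPM. Libraries 1 and 3 of tdT-GFP+ cells were high in Mmp28, while tdT-GFP+ library 2 lay below tdT+GFP+ library 2. The 6 tubule markers summed to 389, 516 and 646 CPM in the tdT+GFP+ sort and 582, 838 and 1381 CPM in the tdT-GFP+ sort. Of these markers 5 had negative fold changes and 1, Slc34a1, a positive one (0.25). Umod alone had 121, 82.5 and 451 against 353, 621 and 754 CPM, so the sums mostly follow that gene. The part of tubule cells in Mmp28 was not tested. Mmp27 had a log2 fold change of 0.47 at 16 to 55 counts per library.

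The Adamts proteases that cut large proteoglycans such as versican and aggrecan ranged from the abundant Adamts1 to the scarce Adamts20, and Adamts9 was higher in every tdT+GFP+ library. Adamts9 (GRCm38 chromosome 6, 92772699 to 92943492, minus strand) had 173, 146 and 117.3 CPM in the tdT+GFP+ sort and 112, 101 and 87.4 CPM in the tdT-GFP+ sort, with all tdT+GFP+ libraries above all tdT-GFP+ libraries. Its mean was 145 ± 27.8 against 100.4 ± 12.5 CPM (SD, n = 3 each), a log2 fold change of 0.53 (SE 0.16, 95% interval 0.15 to 0.92, edgeR unadjusted p = 0.0141, adjusted p = 0.418). The adjusted p was 0.103 in DESeq2, 0.00817 in DESeq2 under a block by kidney and 0.308 in edgeR under that block, and the value lay between 0.39 and 0.67 when libraries or kidneys were left out. An exon of A730049H05Rik on the other strand overlaps Adamts9, and that gene had 30.4, 27.5 and 18.8 against 15.3, 12.6 and 10.8 CPM (log2 fold change 0.99). Reads of this pair cannot be told apart where the counting did not use the strand. Adamts20, the closest relative of Adamts9, had 3.45, 1.87 and 1.94 against 1.91, 1.72 and 1.08 CPM (0.63, SE 0.36).

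Adamts1 and Adamts4, the most abundant proteoglycan-cutting members, had overlapping values in the sorts. Adamts1, an early response gene to injury, had 800.3, 639 and 730.1 against 641, 821 and 902 CPM (log2 fold change -0.12, SE 0.16). Adamts4, an aggrecan-cutting enzyme, had 622, 521 and 461 against 386, 569 and 314 CPM (0.34, SE 0.23), with tdT+GFP+ library 1 as the highest and tdT-GFP+ library 3 as the lowest. Adamts5, another aggrecan-cutting enzyme, which lies next to Adamts1 on chromosome 16, had 79.3, 122 and 66.5 against 77.1, 74.7 and 99.4 CPM (0.10, SE 0.24), and Adamts15 had a log2 fold change of 0.21. Adamts8 (GRCm38 chromosome 9, 30942562 to 30963838, plus strand), the neighbour of Adamts15 on chromosome 9, had 1.16, 2.48 and 1.41 CPM in the tdT+GFP+ sort and 4.71, 2.28 and 7.19 CPM in the tdT-GFP+ sort. Libraries 1 and 3 of tdT-GFP+ cells were high, whereas tdT-GFP+ library 2 lay within the tdT+GFP+ range. The log2 fold change of Adamts8 was -1.49 (SE 0.49, edgeR unadjusted p = 0.020, adjusted p = 0.438, DESeq2 adjusted p = 0.117), and without tdT-GFP+ library 3 it was -1.05.

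The 3 procollagen N-proteinases, which trim fibrillar procollagens before fibrils form, all had positive fold changes. Adamts14 (GRCm38 chromosome 10, 61197112 to 61273438, minus strand) had 20.7, 24.04 and 15.7 CPM in the tdT+GFP+ sort and 14.02, 15.8 and 15.2 CPM in the tdT-GFP+ sort and was higher in 3 of 3 kidneys as labelled. Library 3 of tdT+GFP+ cells lay below tdT-GFP+ library 2, so this tally too would not hold after such an exchange. Its log2 fold change was 0.42 (SE 0.16, edgeR unadjusted p = 0.0348, adjusted p = 0.447). Adamts2, the main enzyme of this kind in skin and the most abundant here, had 774, 827 and 846 against 867, 653 and 595 CPM (0.21, SE 0.15). Library 1 of tdT-GFP+ cells was the highest of all 6 for Adamts2, and without it the value was 0.40. Adamts3 had 5.22, 5.32 and 3.23 against 3.79, 2.58 and 2.78 CPM (0.59, SE 0.27, edgeR adjusted p = 0.477) and exceeded the tdT-GFP+ value in 3 of 3 kidneys.

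Microfibril-associated members went both ways within their spread. Adamts10, in which mutations cause a short-stature syndrome with lens defects, had 155, 141 and 156 against 146, 212 and 142 CPM (-0.15, SE 0.16). Adamts17, whose mutations cause a similar syndrome, had 82.3, 51.5 and 103 against 65.9, 137 and 52.9 CPM (-0.11, SE 0.41). Both were highest in tdT-GFP+ library 2, and without that library they were 0.06 and 0.40. Adamts6 had 37.3, 35.6 and 28.3 against 34.01, 21.4 and 23.5 CPM (0.36, SE 0.20) and exceeded the tdT-GFP+ value in 3 of 3 kidneys.

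Of the other Adamts genes, Adamts7 and Adamts16 were lower in every tdT+GFP+ library. Adamts7 (GRCm38 chromosome 9, 90163069 to 90208071, plus strand), which cuts cartilage oligomeric matrix protein and is known from vascular smooth muscle, had 86.3, 90.3 and 99.7 against 110.4, 118 and 109 CPM. The difference was small and even, with a mean of 92.1 ± 6.9 against 112 ± 4.74 CPM (SD, n = 3 each) and a log2 fold change of -0.29 (SE 0.08, edgeR unadjusted p = 0.00943, adjusted p = 0.414, DESeq2 adjusted p = 0.101), and it lay between -0.37 and -0.24 when libraries or kidneys were left out. The exons of Adamts7 overlap those of Tbc1d2b on the other strand, which had 217 to 262 CPM over the 6 libraries and a log2 fold change of 0.03. Adamts16 (GRCm38 chromosome 13, 70727802 to 70841811, minus strand), studied in the kidney for its link to blood pressure, had 1.04, 1.06 and 1.56 CPM in the tdT+GFP+ sort and 3.0, 1.87 and 7.16 CPM in the tdT-GFP+ sort, from 33 to 193 counts. Its log2 fold change was -1.72 (SE 0.53, edgeR unadjusted p = 0.0151, adjusted p = 0.421, DESeq2 adjusted p = 0.075, and 0.0914 under a block by kidney). Library 3 of tdT-GFP+ cells stood far above the others, and without it the value was -1.001. The 3 podocyte markers had 76.3, 88.3 and 101 CPM in the tdT+GFP+ sort and 161, 185 and 303 CPM in the tdT-GFP+ sort, and the 8 endothelial markers had 419, 686 and 541 against 1227, 896 and 1575 CPM. Of these markers 3 of 3 and 8 of 8 had negative fold changes. Both sums were highest in tdT-GFP+ library 3, as Adamts8, Adamts16 and Mmp28 were. The pericyte and smooth muscle sum (1844 CPM) and the tubule sum (1381 CPM) were highest in that library too. Single markers of these 2 lists, Cspg4, Slc34a1, Aqp2 and Epcam, were highest in other libraries. The part of any of these cell types in Adamts8, Adamts16 and Mmp28 was not tested. Adamts12, a relative of Adamts7, had 253, 271 and 322 against 367, 231 and 218 CPM (0.05, SE 0.22), and Adamts18 had 11 to 81 counts per library and a log2 fold change of -0.72 (SE 0.83).

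Across the 6 libraries few members were as even as most genes were. The highest library exceeded the lowest by under 1.5 times in 8 of the 38 members (21.1%) and in 55.1% of all genes tested, and by more than 3 times in 8 members (21.1%) against 15%. Those 8 were Mmp7, Adamts18, Mmp12, Adamts16, Adamts8, Mmp28, Mmp8 and Adamts20. Library 2 of tdT+GFP+ cells and library 3 of tdT-GFP+ cells were both above library 3 of tdT+GFP+ and library 2 of tdT-GFP+ cells in 8 members (21.1%, against 20.8% of all genes). These were Adamts5, Adamts8, Mmp12, Mmp13, Mmp25, Mmp28, Timp1 and Timp3. The opposite held in 9 members (23.7% against 21%), namely Mmp2, Mmp7, Mmp16, Mmp19, Mmp23, Adamts10, Adamts15, Adamts17 and Adamts18. The labels tie equal library numbers to 1 kidney, so in these members the 2 libraries of kidneys 2 and 3 lay on opposite sides.

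Of 703 pairs of members, 6 put the 6 libraries in the same order and 2 in exactly the reverse order. The share of such pairs among all genes was not computed. The neighbours Mmp3 and Mmp10, which both hold AP-1 and TATAAA letters near the start, were such a pair, with tdT-GFP+ library 1 highest, then tdT+GFP+ libraries 3, 2 and 1, then tdT-GFP+ libraries 3 and 2. Adamts12, on chromosome 15, followed this order except that the last 2 libraries changed places, and it shared its order exactly with Adamts2. The cluster neighbours Mmp12 and Mmp13, with the same letters around a listed start (1 of 2 for Mmp12), had other orders. These differed from each other, but both had tdT+GFP+ library 2 highest and tdT-GFP+ library 2 lowest. Mmp13 shared its order with Timp3. The other pairs were Adamts10 with Adamts17, Adamts8 with Mmp28, and Mmp16 with Mmp19, and Mmp23 ran in reverse to both Adamts8 and Mmp28. These genes were singled out after their values were seen, and a link between the letters and the order was not tested. Mmp10 had 22 to 71 counts per library, so its close ranks lie within counting error. An example is 45 counts (1.45 CPM) and 40 counts (1.52 CPM) in tdT+GFP+ libraries 2 and 3.

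**Figure D4:**
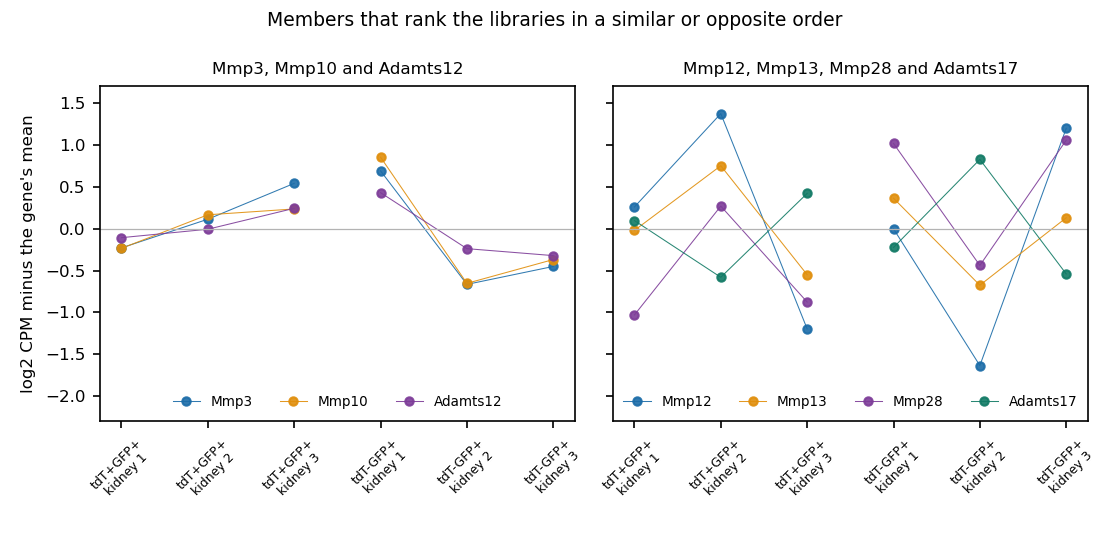
Log2 CPM of 7 members in each library, as the difference from the gene's own mean over 6 libraries. The lines only join the points of a gene within a sort; at the left Mmp3, Mmp10 and Adamts12 are highest in tdT-GFP+ library 1, and at the right Adamts17 runs opposite to Mmp12 and Mmp13 in the libraries of kidneys 2 and 3.

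The wider protease network also held no gene that passed. Of 48 genes in 9 lists (Adamts-like proteins, Adam sheddases, the membrane inhibitor Reck with Bsg and clearance receptors, plasminogen activation, proprotein convertases, procollagen C-proteinases, cathepsins, serine proteases and proteoglycans), 44 were tested. Their fold changes were positive in 22 and negative in 22, with a median of 0.00. In edgeR 0 passed (0% of all genes tested), and in DESeq2 0 passed (0.117% of all genes higher and 1.81% lower). In edgeR 1 in each direction had an unadjusted p under 0.05, against 3.71% of all genes higher and 6.97% lower. Adam9, a sheddase of cell surface proteins, had 243, 251 and 205 against 207, 154 and 168 CPM (log2 fold change 0.40, SE 0.14, edgeR adjusted p = 0.438). Pcsk6, a convertase that activates precursor proteins, had 2.78, 5.35 and 4.0 against 8.1, 5.19 and 11.1 CPM (-1.01, SE 0.35, edgeR adjusted p = 0.438). All tdT+GFP+ libraries lay above all tdT-GFP+ libraries in 3 of the 44, Ctsl, Ctsk and Adam12, with log2 fold changes of 0.28, 0.24 and 0.18, where 7.23% of all genes did so. The reverse held for 0 genes in each of the 9 lists, where 8.6% of all genes did so. All 5 cathepsins had positive values. Ctss, Ctsb and Ctsc, like the summed macrophage markers, were highest in tdT+GFP+ library 2 and lowest in tdT-GFP+ library 2. Ctsl and Ctsk were lowest in tdT-GFP+ library 3. Ctss had 115, 191 and 43.2 against 59.3, 35.9 and 118 CPM, and the part of macrophages in the cathepsins was not tested. The proteoglycan versican (Vcan), a substrate of Adamts1, Adamts4, Adamts5 and Adamts9, had 481, 491 and 427 against 509, 274 and 316 CPM (0.35, SE 0.23). Of the other genes with the smallest p in their lists, Thsd4, Papln, Adam15, Tll1, Serpine2, Prss23 and Fap had negative values from -0.88 to -0.12, and Lrp1, Mrc2, Furin and Bmp1 had positive values up to 0.30. Library 1 of tdT-GFP+ cells was the highest for Vcan, as it was for Adamts2 and Adamts12.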

How the data were processed

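RNA sequencing libraries of 3 tdT+GFP+ and 3 tdT-GFP+ samples were used, 1 of each from kidneys 1, 2 and 3. The authors deposited 1 table of expected counts per gene made with RSEM, per the file headers, already rounded to whole numbers. Tools named without a role in the submitters' processing notes are RSEM 1.2.28, STAR 2.6.1, R 3.6.3, bcl2fastq 2.20 and DESeq2 1.26.0, beside the builds mm10 and GRCh38. No source used here names the annotation release. All 92 spike-in rows held 0 counts and were left out. Expected counts split reads among similar genes by estimate, so counts of close paralogs are uncertain.

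All 15462 genes that passed filterByExpr were fitted with edgeR 4.0.16 (TMM scaling, robust quasi-likelihood fit, Benjamini-Hochberg adjustment, threshold 0.05) in R 4.3.3. CPM use TMM-scaled library sizes, and exon lengths and coordinates come from GENCODE M21 (GRCm38), in which 31748 of 31815 gene IDs were found. DESeq2 1.42.0, limma 3.58.1, other scaling and filters, the kidney as a block and left-out libraries were the alternatives. The code of the fit was run on simulated counts with the same dispersion for every gene and no kidney effect. These differ from the present libraries, so that run cannot tell what the fit could detect here. The labels number the libraries by kidney, which pairs them; deviations of same-numbered libraries correlated at 0.039, -0.578 and -0.304, and those of tdT+GFP+ library 2 with tdT-GFP+ library 3 at 0.448 and of tdT+GFP+ library 3 with tdT-GFP+ library 2 at 0.444. Being taken from each sort's own mean, these deviations give correlations that are tied to each other. Whether the kidneys came from separate animals is not stated here, and p-values measure the spread between these libraries.

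Library values are printed for every reported Timp gene, in each role for the 2 genes of highest level and the 2 of smallest p, and for the 5 genes of smallest p in each direction; those of Mmp7, Mmp10, Mmp12, Mmp16, Adamts5 and Adamts20 were added after their values were seen. The members and gene lists were chosen with earlier results of these data known. The values of some genes that are not members are not reported here.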

Additional observations from a re-analysis of the deposited data

How the results depend on the processing

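Of 16 alternatives, 9 left out libraries and the others changed the scaling, the filter, the tool or the block. The direction held in all 16 for 21 of the 38 genes and turned in some for 17, among them 4 with all 6 libraries in use. With all 6 libraries, Mmp10 was 0.0705 in limma-voom, 0.10 with the replicate block in edgeR and 0.11 with it in DESeq2, Mmp7 was -0.26, -0.12 and -0.22, Mmp16 was -0.00896 in limma-voom and Timp3 was -0.00077 with the block in DESeq2. With libraries or kidneys left out, the log2 fold changes of the 17 ran as follows: Adamts5 -0.28 to 0.41, Adamts10 -0.28 to 0.10, Adamts12 -0.19 to 0.42, Adamts15 -0.0934 to 0.48, Adamts17 -0.60 to 0.63, Adamts18 -1.75 to 0.54, Mmp2 -0.52 to 0.00456, Mmp3 -0.22 to 0.92, Mmp7 -0.99 to 0.77, Mmp10 -0.37 to 0.72, Mmp12 -1.01 to 1.51, Mmp13 -0.52 to 0.48, Mmp14 -0.21 to 0.0932, Mmp16 -0.32 to 0.30, Mmp19 -0.0599 to 0.16, Timp2 -0.0295 to 0.23, Timp3 -0.32 to 0.19. The causes of these turns were not tested.

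With libraries left out, members at an unadjusted p under 0.05 numbered 1 to 8 higher and 0 to 7 lower, and all genes 106 to 1667 higher and 487 to 1469 lower. Members without overlap numbered 2 to 12 higher and 4 to 10 lower, and all genes 1318 to 3733 higher and 1615 to 3555 lower, with fewer libraries to separate. The members' median ran from -0.0766 to 0.23. The kidney pairs same-numbered libraries by design. At the unadjusted p, the replicate block in edgeR gave 2 higher and 3 lower members (374 and 911 of all genes). In DESeq2 it gave 1 higher and 6 lower members (292 and 840 of all genes). At an adjusted p under 0.05, DESeq2 gave 17 higher and 264 lower genes, and with the block 41 higher and 237 lower, of which 1, Adamts9, was a member. At that threshold no other call on a member changed with the block. The cause was not tested. Members with few counts, such as Mmp7, are limited by depth.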
